A study of Mus musculus with 12 samples.

Results

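Library sets A and B are 2 groups of RNA-sequencing libraries from mouse embryonic stem cells (mESC) whose expression profiles varied together across independent clones. Set A holds replicate 2 of clone 4 and replicate 3 of clone 10, and set B holds replicate 3 of clone 4 and replicate 2 of clone 10. Each replicate contributes a GFP-negative and a GFP-positive library, so each set has 4 libraries and 8 of the 12 libraries of the study are included. Members were selected on the gene counts of these libraries themselves, because replicates 2 and 3 deviated crosswise between the clones, and neither set is a group of the study's design. Every gene of these 8 libraries therefore counts as used in the choice, and the differences between the sets are descriptions without a test.

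The study measured RNA by sequencing (TruSeq v2 library kit) in sorted cells of clones 4 and 10, each of them 1 derived line. All cells descended from mice carrying Sphk1fl/fl and Sphk2-/- alleles, all were kept for 48 hours in (Z)-4-hydroxytamoxifen at 6 uM, and all were grown with serum and leukaemia inhibitory factor (LIF). GFP-negative cells are labelled Sphk1fl/fl Sphk2-/-, and GFP-positive cells, which express Cre-GFP, are labelled Sphk1-/- Sphk2-/-. The promoter driving Cre-GFP is not given in the sources used here, and every group lacks Sphk2, so no group has both kinases.

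Sphk1 and Sphk2 encode the sphingosine kinases, which make sphingosine 1-phosphate, a lipid signal. Embryonic stem cells in serum and LIF fluctuate between a naive state, held by factors such as Nanog and Klf4, and states closer to differentiation, which fibroblast growth factor (FGF) signalling through the kinase ERK promotes. Nodal and Wnt signals act on the same decision, and cultures can also hold differentiated or feeder-type cells that make extracellular matrix.

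Several properties of the libraries moved with the sets. Set A libraries held 19196623 to 20948701 counts and set B libraries 24710535 to 34258395. Mitochondrially encoded genes took 0.845% to 1.22% of the counts in set A and 1.43% to 2.32% in set B. The summed level of 30 fibroblast and matrix genes was 3020 to 5691 CPM (the count scaled to the library total) in set A, 1974 to 2929 in set B and 1442 to 2438 in the replicates numbered 1, and only Lum of these genes stayed under 1 CPM in every library. Of 14 macrophage and blood markers, 8 stayed under 1 CPM in all 12 libraries, among them Ptprc and Csf1r, and Hbb-bs was at 0 in all 12. Their summed level was 277 to 316 CPM in set A, 214 to 272 in set B and 246 to 308 in the replicates numbered 1. Among the 6 with enough counts, Cd68 and Spi1 (33.3%) were higher in set A in each clone and gate, near the 30.4% of all genes. Naive pluripotency genes were well detected in both sets, with summed levels of 8567 to 12380 CPM in set A and 9975 to 12080 CPM in set B. The labels give passages 13, 14, 19 and 20 to set A and 15 to 18 to set B, but these numbers rise by 1 from sample to sample, so their accuracy is uncertain. The labels do not say whether replicates were separate cultures. In bulk RNA, fewer cells of a type and less RNA per cell cannot be told apart.

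A difference between the sets was taken in each of 4 strata (clone 4 GFP-negative, clone 4 GFP-positive, clone 10 GFP-negative, clone 10 GFP-positive) as log2 CPM in set A minus log2 CPM in set B. The mean of these 4 differences is reported with their SD. The strata are not independent, since the GFP-negative and GFP-positive libraries of a clone share a replicate number. Of 15179 genes with enough counts, 1376 (9.07%) were higher in set A in 4 of 4 strata with a mean of at least 2-fold, and 665 (4.38%) were higher in set B by the same measure. Whatever the size, 30.4% of genes were higher in set A in all 4 strata and 27.5% lower. Without a scaling factor the counts past 2-fold were 1798 and 476, and with all 8 libraries thinned to equal depth 1393 and 650. Levels of 1992 genes (13.1%) lay above all set B libraries in every set A library, and 2137 genes (14.1%) had the opposite order. The median over all tested genes was 0.03.

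The difference was larger in clone 4. Its SD over genes was 0.91 and 0.94 in the GFP-negative and GFP-positive strata of clone 4, and 0.73 in both strata of clone 10. In clone 4, 2502 genes differed by at least 2-fold in both gates, against 1227 in clone 10. Across the 15179 genes, differences in the 2 gates of clone 4 correlated at Pearson 0.867 and in those of clone 10 at 0.771, whereas strata of different clones gave 0.503 to 0.579. The last range follows from how the sets were chosen, and genes within a library are not independent. Of the 1376 genes higher in set A, 764 reached 2-fold in both clones, and of the 665 higher in set B, 276 did.

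**Figure D1:**
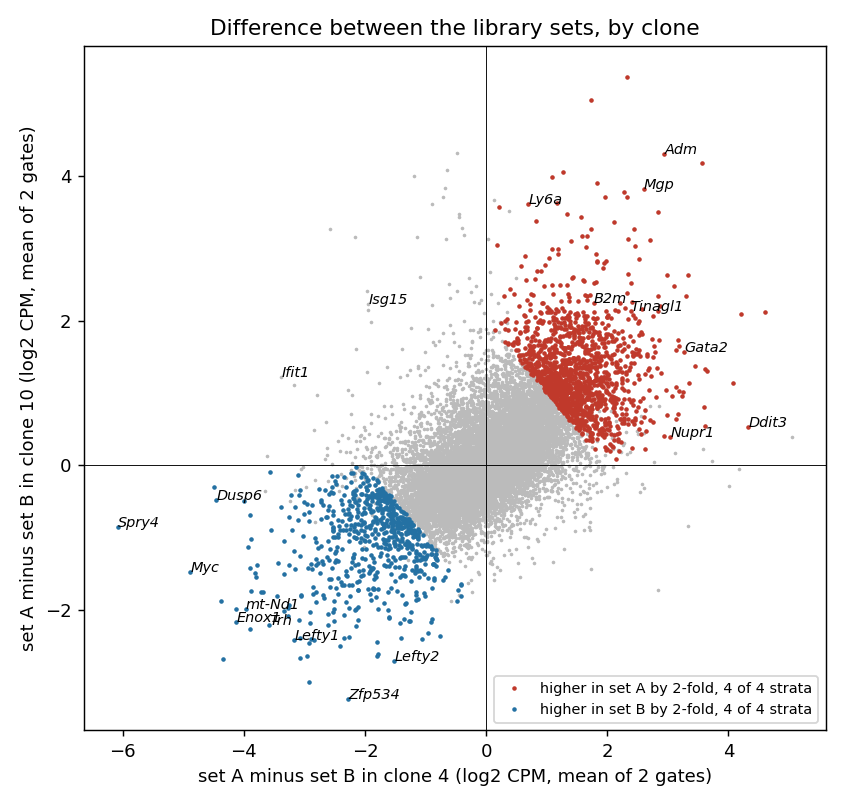
Each point is a gene, placed by its difference between set A and set B in clone 4 (horizontal) and in clone 10 (vertical), in log2 CPM averaged over the 2 gates. Red and blue points are the 1376 and 665 genes past 2-fold, and Spry4, Dusp6 and Ddit3 lie far out along the clone 4 axis and closer to 0 in clone 10.

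Genes that report FGF and ERK activity were lower in set A, mostly through clone 4. Spry4, a feedback inhibitor of receptor tyrosine kinase signalling (mm10 chromosome 18, 38586268 to 38601268), stood at 3.18, 3.0, 124 and 98.6 CPM in the set A libraries, in the order of the strata given here, and at 196, 200, 195 and 168 CPM in set B. Replicate 1 libraries gave 138, 116, 235 and 188 CPM, so the clone 4 libraries of set A were far below all others. The mean difference was -3.46 (SD 3.02, 4 strata), made of -6.08 in clone 4 and -0.86 in clone 10. Dusp6, the phosphatase that inactivates ERK, had a like split, with 2.97 and 2.37 CPM in clone 4 and 46.5 and 38.1 CPM in clone 10 for set A. Set B held 57.4, 53.9, 54.7 and 51.9 CPM of Dusp6, and the sets did not overlap. The ETS factors Etv1 (-2.63, SD 0.95), Etv5 (-1.48, SD 0.93) and Etv4 (-1.02, SD 0.79) were also lower in set A in 4 of 4 strata. Of 16 tested members of the FGF and ERK list, 10 were lower in set A in every stratum, 8 of them by 2-fold, and 2 were higher. The list median was -1.75 and -1.88 in the strata of clone 4, and -0.37 and -0.64 in those of clone 10. Fgf4, the main FGF ligand of these cells, went the other way in clone 4 (0.60) and was close between the sets in clone 10 (-0.19).

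Myc and Egr1, which growth factor signals induce, were lower in set A as well. Myc, a transcription factor of growth and self-renewal (chromosome 15, 61985391 to 61990374), stood at 1.56, 1.06, 21.1 and 17.1 CPM in set A, and at 43.3, 32.7, 57.6 and 39.7 CPM in set B. Every set B library was above every set A library, and the mean difference was -3.18 (SD 1.97). Egr1 held 12.0, 10.9, 16.8 and 21.6 CPM in set A and 164, 114, 61.1 and 55.7 CPM in set B, a mean of -2.72 (SD 1.14) with a more even split between the clones. Ier2 (-1.17, SD 0.87) and Fosb (-1.17, SD 1.26), 2 further early response genes, were lower in set A mainly in clone 4. The list as a whole did not exceed the shares of all genes. Of 21 tested, 5 (23.8%) were lower in set A in all strata and 4 (19.05%) were higher. Among all genes the shares were 27.5% and 30.4%. Fos, a partner in the AP-1 factor, differed by 0.05 on average, with 0.43, 0.374, -0.885 and 0.286 in the strata.

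Genes of the formative and primed states, which follow the naive state, were lower in set A in both clones. Otx2, a transcription factor of that transition, stood at 0.573, 0.242, 0.859 and 0.493 CPM in set A and at 3.80, 4.38, 2.15 and 2.89 CPM in set B. Zic2, another factor of primed cells, stood at 9.64, 9.05, 12.2 and 9.81 CPM in set A and at 40.0, 35.3, 38.2 and 28.2 CPM in set B. Neither gene overlapped between the sets, and for Zic2 the strata were close to each other (-1.92, SD 0.23). Fgf5, a marker of the epiblast, was at 0 in both clone 4 libraries of set A and at most at 3.40 CPM anywhere in the sets. The DNA methyltransferases Dnmt3a (-0.80, SD 0.34) and Dnmt3b (-0.82, SD 0.10) were lower in set A by less than 2-fold. Of 16 tested list members, 14 were lower in set A in every stratum and 8 of these by 2-fold, against 1 higher, with a median of -1.0. Tet1, an oxidase of methylated cytosine, was lower too (-1.34, SD 0.29), with 9 of 11 genes of the DNA methylation list in that direction.

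Inhibitors of Nodal signalling were lower in set A in both clones. Lefty1, a secreted antagonist of Nodal (chromosome 1, 180935022 to 180938400), stood at 35.5, 32.1, 42.3 and 43.8 CPM in set A and at 351, 223, 210 and 208 CPM in set B. The replicates numbered 1 lay in between, at 77.3, 59.3, 111 and 147 CPM. The mean difference was -2.79 (SD 0.46). The neighbouring Lefty2 differed by -2.11 (SD 0.73), and Nodal itself by -0.97 (SD 0.59). Of 10 tested genes of the Nodal list, 7 were lower in set A in every stratum and 1 was higher, with a median of -0.83.

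Wnt target genes were split. Wnt8a, a ligand (-3.06, SD 1.29), Notum, a secreted Wnt inhibitor (-2.54, SD 0.44), and Sp5, a target gene and repressor (-2.27, SD 0.94), were lower in set A, together with Lef1 (-1.90, SD 0.67), which encodes a DNA-binding partner of beta-catenin. Of 17 tested, 6 were lower in set A in all strata by 2-fold and 4 were higher by 2-fold. Axin2, a general target, differed by 0.01, with clone means of -0.26 and 0.29. The BMP branch was split in the same way. The BMP targets Id1 (-1.93, SD 1.39) and Id3 (-1.60, SD 1.06) were lower in set A, mainly in clone 4 (-3.10 and -2.52, against -0.75 and -0.69 in clone 10). The target Smad6 was higher (0.615, SD 0.10). Among ligands, Bmp4 was lower (-1.07, SD 0.80) and Bmp7 higher (1.94, SD 0.37). Bmp7 stood at 30.7, 31.2, 26.2 and 27.1 CPM against 7.0, 8.09, 4.38 and 8.34 CPM in set B. Of 14 tested, 5 (35.7%) were higher in all strata and 4 (28.6%) lower, near the shares of all genes (30.4% and 27.5%).

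Core pluripotency factors differed less. Pou5f1, which encodes Oct4, stood at 980, 944, 1401 and 1069 CPM in set A and at 1339, 1262, 1607 and 1480 CPM in set B, a mean difference of -0.51 (SD 0.12). Nanog was lower in set A in clone 4 (-1.22) and close between the sets in clone 10 (-0.22), and Sox2 gave -1.71 and -0.35. Klf4 took opposite signs, -0.81 in clone 4 and 0.45 in clone 10. Of 27 naive pluripotency genes, 15 were lower in set A in all strata, 4 of them by 2-fold (Dppa2, Nr5a2, Sox2 and Utf1), and 3 were higher. The list median was -0.44. The stem cell gene L1td1, an RNA-binding protein derived from a retrotransposon, differed by -2.67 (SD 1.30), and Trh, which encodes the precursor of thyrotropin-releasing hormone, by -2.90 (SD 0.79). Enox1, a cell-surface oxidase gene, stood at 3.44, 3.58, 16.7 and 14.5 CPM in set A against 56.5, 59.6, 66.3 and 60.7 CPM in set B (-3.15, SD 1.13).

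**Figure D2:**
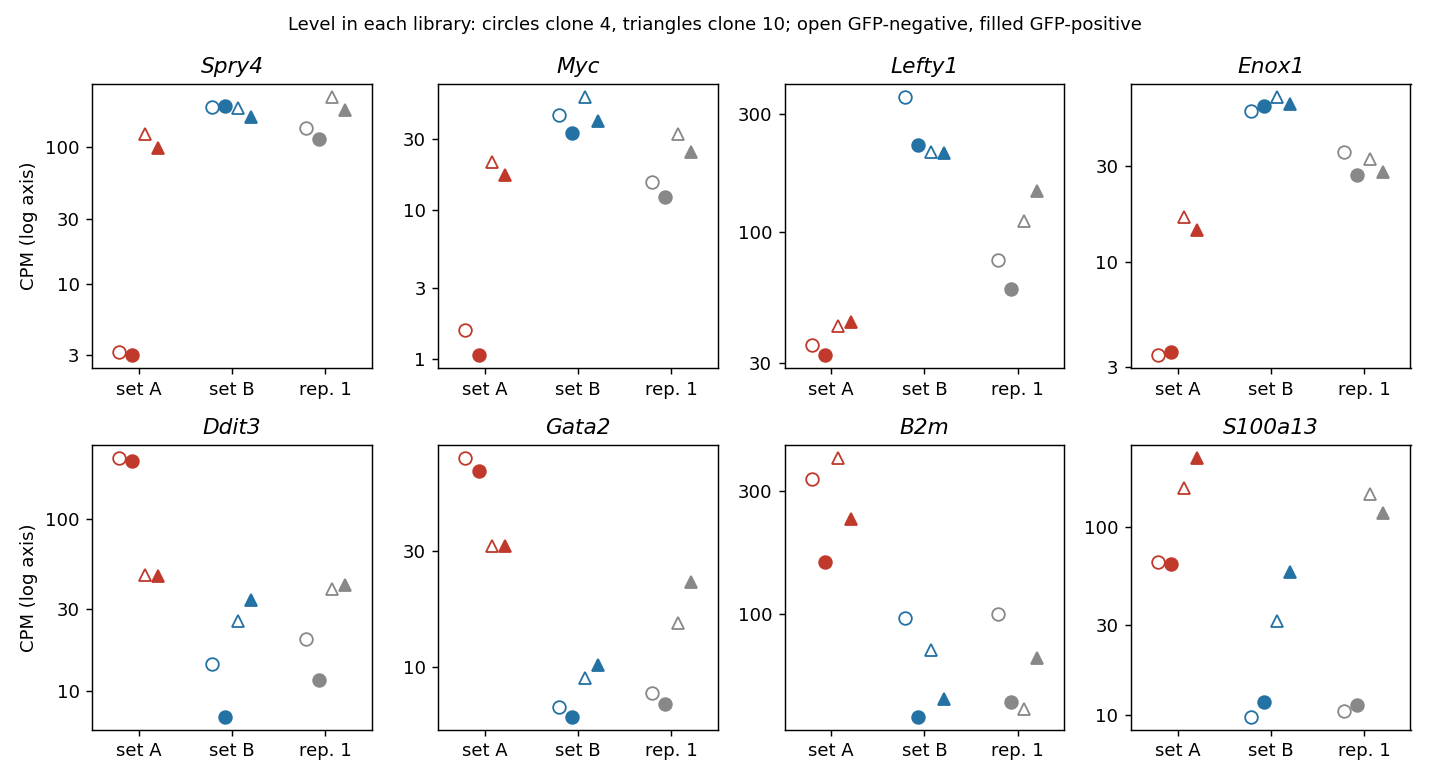
Levels of 8 genes in CPM on log axes, each with its own range, in set A (red), set B (blue) and replicate 1 (grey). Circles are clone 4, triangles clone 10, open symbols GFP-negative and filled symbols GFP-positive libraries, each symbol being 1 library: Lefty1 separates the sets in both clones, whereas Spry4 and Ddit3 are set apart by the clone 4 libraries of set A.

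Genes of cell growth and division were lower in set A by small amounts in most members. Of 20 ribosome biogenesis genes, which build ribosomes in the nucleolus, 19 were lower in set A in all strata, with a median of -0.60 and a single gene past 2-fold, the nucleolar protein gene Nop58 (-1.01, SD 0.12). Of 32 genes of the G1/S transition and DNA replication, 26 were lower in set A and 0 higher, with a median of -0.48. The strata medians were -0.785 and -0.60 in clone 4, and -0.33 and -0.32 in clone 10. In this list 4 genes (12.5%) were lower by 2-fold. Among all genes 27.5% were lower in all strata and 4.38% by 2-fold. Ccne1, which encodes cyclin E1, stood at 55.6, 72.3, 146 and 128 CPM in set A and at 213, 194, 258 and 220 CPM in set B. Of 34 mitotic genes, 22 were lower and 3 higher, with a median of -0.33. Chaperone genes moved in that direction too, with 8 of 15 lower in set A. Hsph1, a co-chaperone of the Hsp70 family, stood at 83.1, 85.2, 126 and 113 CPM in set A against 313, 323, 316 and 298 CPM in set B (-1.77, SD 0.30). Genes of the ribosome itself did not share the direction, since 25 of 46 were higher in set A and 7 lower, with a median of 0.26. Histone genes were higher in set A in 9 of 26 (34.6%, near the 30.4% of all genes) and lower in 0, and their median of 1.44 in the clone 10 GFP-positive stratum was above the 0.14 to 0.44 of the other strata.

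Genes named Zfp plus a number, most of which encode zinc finger proteins, formed a large group lower in set A. This list was added after the largest differences had been seen. Of 322 tested, 171 were lower in set A in all strata, 66 of them by 2-fold, and 25 were higher, 0 of them by 2-fold, with a median of -0.49. Zfp534 stood at 9.85, 11.5, 13.8 and 9.56 CPM in set A and at 23.6, 98.1, 103 and 94.3 CPM in set B, while replicate 1 libraries gave 6.25 to 10.3 CPM. For this gene replicate 1 thus sat with set A. Zinc finger genes come in clusters of similar copies, and reads shared between copies make single members uncertain.

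The mitochondrial genome gave the largest list difference. It encodes subunits of the respiratory chain. Of 13 mitochondrially encoded genes 8 had enough counts, and of these 7 were lower in set A in all strata, 6 of them by 2-fold, and the median was -1.45. mt-Nd1, a subunit of complex I, stood at 140, 163, 952 and 1015 CPM in set A and at 1647, 2894, 3415 and 3642 CPM in set B (-2.98, SD 1.17). mt-Cytb, a subunit of complex III, differed by -2.80 (SD 1.25). mt-Co1, a subunit of cytochrome oxidase, moved far less (-0.64, SD 0.33), so the genes of this single genome differed unequally. Reads of mt-Co1 made up 85.7% of the mitochondrial counts in both clone 4 libraries of set A, 65.1% and 67.7% in those of clone 10, and 52.3% to 54.5% in set B. Nuclear genes of the respiratory chain were not lower in set A, with 16 of 35 higher in all strata, 3 lower and 0 past 2-fold. Transcripts of this genome can differ between libraries with RNA handling and selection, whose part here was not tested.

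**Figure D3:**
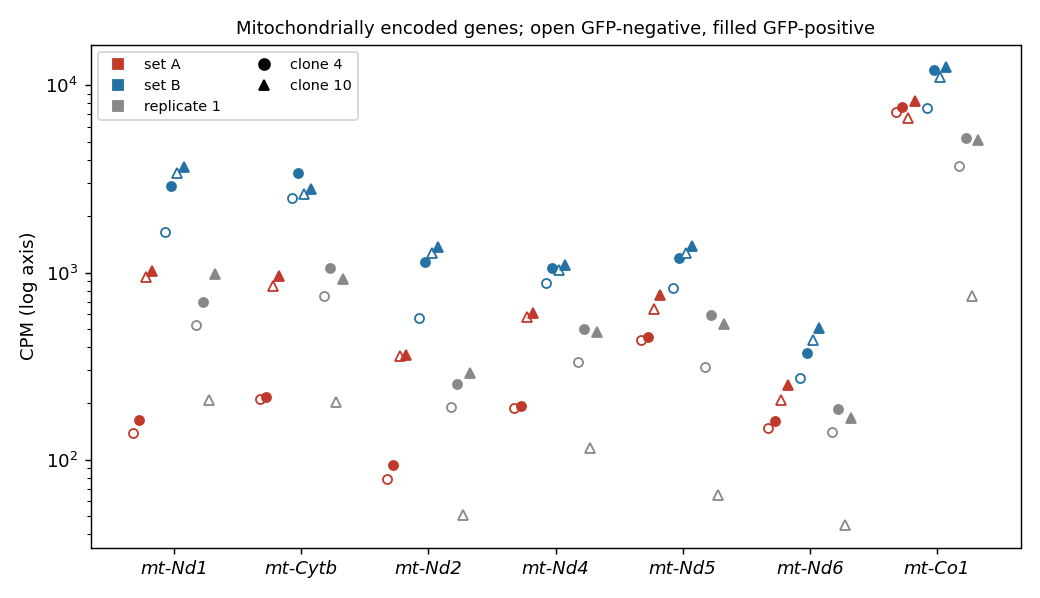
Level of 7 mitochondrially encoded genes in each library, in CPM on a log axis; red is set A, blue set B and grey replicate 1, with circles for clone 4, triangles for clone 10, open symbols for GFP-negative and filled symbols for GFP-positive libraries. The clone 4 libraries of set A are lowest of the 8 for mt-Nd1, mt-Cytb and mt-Nd2 but not for mt-Co1, and among all 12 the clone 10 GFP-negative replicate 1 library is low throughout.

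Genes of fibroblasts and extracellular matrix were higher in set A. Of 29 tested, 24 were higher in set A in all strata, 14 of them by 2-fold, and 0 were lower, with a median of 0.90. Bgn, a matrix proteoglycan, stood at 352, 93.0, 424 and 184 CPM in set A and at 109, 26.9, 97.2 and 42.0 CPM in set B. Within each stratum the set A library was higher, by 1.80 on average (SD 0.20), but the sets overlapped because GFP-positive libraries were lower in both. Mmp2, a matrix metalloproteinase (1.79, SD 0.34), Col6a1, a collagen (1.86, SD 0.25), and Pdgfrb, a receptor of mesenchymal cells (2.3, SD 0.67), were higher in set A. Mgp, an inhibitor of calcification made by vascular and mesenchymal cells, gave the largest mean among genes of moderate level, 3.21 (SD 0.76), at 49.2, 15.6, 98.2 and 56.8 CPM against 9.02, 1.90, 7.24 and 3.01 CPM. Col1a1, the main fibrillar collagen of fibroblasts, did not share the size, with 0.14 in clone 4 and 1.38 in clone 10. Of 15 smooth muscle genes, 12 were higher in set A and 1 was lower. Des, which encodes desmin, differed by 1.57 (SD 0.20), but replicate 1 libraries held more of it (46.5 to 73.0 CPM) than set A (33.8 to 41.0 CPM).

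Antigen presentation genes of the major histocompatibility complex (MHC) class I pathway were higher in set A. B2m, the common light chain of class I molecules (chromosome 2, 122147686 to 122153083), stood at 332, 159, 402 and 234 CPM in set A and at 96.7, 39.9, 72.2 and 46.9 CPM in set B. The sets did not overlap, and the difference was 2.01 (SD 0.29). The heavy chains H2-D1 (1.68, SD 0.23) and H2-K1 (1.62, SD 0.25) gave values of like size, and so did H2-T23 (2.26, SD 1.02). Heavy chain genes resemble each other, so reads may be shared between them. The peptide transporter gene Tap1 differed by 1.05 (SD 0.33). Of 15 genes of the list, 9 were higher in set A in all strata, 8 of them by 2-fold, and 0 were lower. The summed level was 1016 to 1497 CPM in set A and 355 to 812 CPM in set B. In each stratum the set A library was higher in this sum and in that of the fibroblast genes, but the sums were not in step. Clone 10 GFP-negative replicate 2 (set B) held 436 CPM of MHC and 2929 CPM of fibroblast genes. Clone 4 GFP-positive replicate 2 (set A) held 1109 and 3020 CPM. The part of the fibroblast genes in the MHC difference was not tested.

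The promoter of B2m is shown because interferon-responsive elements there are part of the textbook account of this gene. The 249 printed bases carry a single match to the core of the interferon-stimulated response element, shown in capitals. The search on both strands was for GAAA, any 2 bases and GAAA, and the match begins 139 bases before the RefSeq start. The base next to that start lies in an annotated exon and is left out. The sequence is from the RefSeq promoter table on GRCm38.p6, plus strand, chr2:122147437-122147685.
B2m: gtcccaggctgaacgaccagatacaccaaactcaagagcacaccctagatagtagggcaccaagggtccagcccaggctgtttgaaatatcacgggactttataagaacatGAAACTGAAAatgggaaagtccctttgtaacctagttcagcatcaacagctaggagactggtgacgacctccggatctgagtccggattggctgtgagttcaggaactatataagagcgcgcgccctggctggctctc
Of 13 MHC list genes with an entry in that table, 2 (15.4%) held this motif within 250 bases before the start, B2m and H2-T23, against 2.57% of the promoters of 11089 tested genes with an entry. A match describes letters and not occupancy.

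Interferon-stimulated genes themselves were split by clone. The list median was -0.55 and -0.51 in the strata of clone 4 and 1.32 and 1.21 in those of clone 10. Ifit1, an antiviral RNA-binding protein, stood at 6.98 and 2.76 CPM in clone 4 and at 77.9 and 51.9 CPM in clone 10 for set A, against 49.4 and 37.5 CPM and then 29.9 and 20.2 CPM for set B. Isg15, a ubiquitin-like modifier, had clone means of -1.95 and 2.24. Irf7, a transcription factor of the pathway, was higher in set A in both clones (0.68 and 1.92), and so was Ifi44 (0.20 and 3.58). Over all genes, 1923 (12.7%) had opposite signs in the clones in both gates and 29 (0.191%) did so by 2-fold in each clone.

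Inflammatory targets of the factor NF-kB were higher in set A in 10 of 17 tested genes, 6 of them by 2-fold, and lower in 0. Cxcl1, a neutrophil chemokine, stood at 3.39, 1.84, 9.79 and 7.20 CPM in set A and at 0.688, 0.204, 1.47 and 0.873 CPM in set B (2.5, SD 0.30). Vcam1, an adhesion molecule, differed by 1.79 (SD 0.39) and Lcn2, an iron-carrier binding protein, by 3.03 (SD 0.98), the latter at no more than 8.97 CPM. Ly6a, a surface antigen known as Sca-1, was higher mainly in clone 10, at 3.62 against 0.69 in clone 4.

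Lysosome and autophagy genes were higher in set A. Of 25, 18 were higher in all strata, 5 of them by 2-fold, and 2 were lower, with a median of 0.68. Wipi1, which acts in forming the autophagosome, stood at 59.1, 52.3, 42.9 and 40.3 CPM in set A and at 18.1, 17.6, 14.1 and 15.4 CPM in set B (1.43, SD 0.16). The lysosomal enzymes Hexa (1.22, SD 0.58) and Ctsb (1.21, SD 0.30) differed by like amounts. Lamp1, a main protein of the lysosomal membrane, was higher by less than 2-fold, with 0.83 in clone 4 and 0.20 in clone 10.

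Lysosome promoters are known for E-box elements with the letters CACGTG, which factors of the TFEB family bind. Lamp1 is shown because it held the most matches of the list, 4 within the 250 bases before its start, printed in capitals. The sequence is from the RefSeq table on GRCm38.p6, plus strand, chr8:13158911-13159160.
Lamp1: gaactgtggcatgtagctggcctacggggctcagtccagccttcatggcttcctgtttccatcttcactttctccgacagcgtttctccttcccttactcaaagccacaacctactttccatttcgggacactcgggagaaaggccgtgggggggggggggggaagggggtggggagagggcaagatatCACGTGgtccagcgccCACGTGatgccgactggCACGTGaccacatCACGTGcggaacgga
The motif reads the same on both strands. Of 20 lysosome genes with an entry, 7 (35%) held it, against 930 of 11089 tested genes (8.39%). All 7 stayed under 2-fold. Among them Atg5 was lower in set A in all strata (-0.35) and Atg7 was mixed (0.25), while the rest were higher in all strata. A part of the motif in these differences was not tested. Wipi1, Hexa and Ctsb, whose differences were larger than that of Lamp1, were not among the 7.

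Targets of the stress factor ATF4 were higher in set A mainly in clone 4. Ddit3, which encodes the stress factor CHOP (chromosome 10, 127290774 to 127296288), stood at 226, 216, 47.3 and 46.3 CPM in set A. Set B held 14.4, 7.09, 25.4 and 33.6 CPM, and replicate 1 libraries 20.0, 11.6, 38.9 and 41.3 CPM. The clone 4 libraries of set A were thus far above the rest, with differences of 4.32 in clone 4 and 0.53 in clone 10. Nupr1, a stress-induced nuclear protein, had the same split (3.04 and 0.39). Of 26 list members, 13 were higher in set A in all strata, 4 of them by 2-fold, and 2 were lower, 1 of them by 2-fold (the arginine transporter gene Slc7a3, -1.29). The list medians were 0.79 and 0.90 in clone 4 but 0.22 and -0.03 in clone 10. Atf4 itself differed by -0.06. Chaperones of the unfolded protein response were close between the sets, with 1 of 18 higher and 2 lower.

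Other genes with large values in set A came from several programs. Adm, a hypoxia-induced peptide hormone gene, differed by 3.62 (SD 0.80), Vegfa, the vascular growth factor gene, by 1.49 (SD 1.02), and the hexokinase gene Hk1 by 1.42 (SD 0.15). Glycolysis and hypoxia genes as a list were nevertheless split, with 13 of 33 (39.4%) higher in set A and 7 (21.2%) lower. Among all genes the shares were 30.4% and 27.5%. Eno2, which encodes neuronal enolase, stood at 117, 91.4, 20.9 and 21.7 CPM in set A against 9.19, 8.17, 7.21 and 7.44 CPM in set B. Gata2, a transcription factor of blood and trophoblast, stood at 73.0, 64.5, 31.6 and 31.6 CPM against 6.80, 6.22, 9.02 and 10.2 CPM (2.42, SD 0.99). Tinagl1, a matrix protein gene, was even over the strata at 49.4 to 51.6 CPM in set A and 7.62 to 10.7 CPM in set B, yet replicate 1 libraries spanned 16.3 to 54.0 CPM. The neighbouring calcium-binding protein genes S100a13 (2.24, SD 0.31) and S100a1 (2.24, SD 0.40) were higher in set A within each clone, though clone 10 held more of both. Of 18 primitive endoderm genes, which mark an extraembryonic lineage, 13 (72.2%) were higher in set A and 3 (16.7%) lower. Past 2-fold were 5 (27.8%) and 2 (11.1%), against 9.07% and 4.38% of all genes. Sox7 (-1.47), Cubn (-1.15) and Foxa2 (-0.68) were the 3 lower, and Pdgfra and Sparc also count in the fibroblast list. Neural genes were lower in set A in 6 of 12 (50%) and higher in 1 (8.33%), against 27.5% and 30.4% of all genes.

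**Figure D4:**
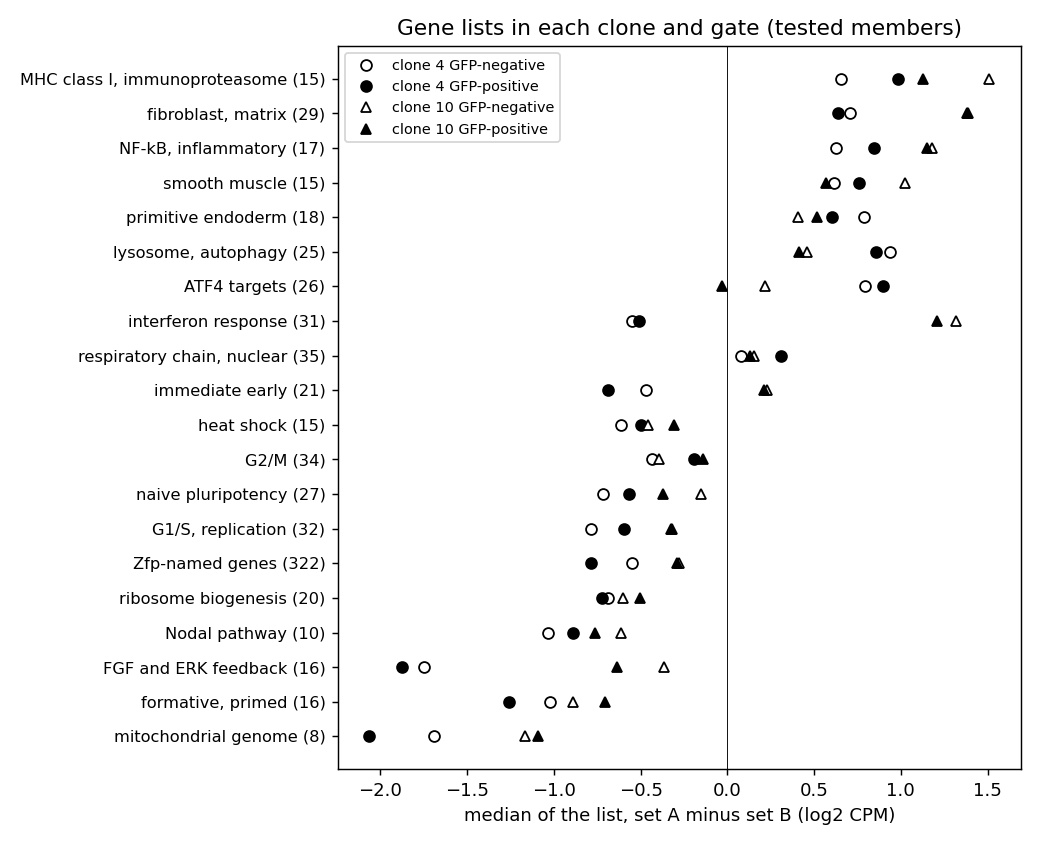
Median difference between set A and set B (log2 CPM) of 20 gene lists, with the number of tested members in brackets; circles are clone 4, triangles clone 10, open symbols GFP-negative and filled symbols GFP-positive strata. The interferon list and the immediate early list take opposite signs in the clones, while the mitochondrial genome list is below -1 in every stratum.

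The kinase genes were low in both sets. Sphk1 stood at 3.02, 1.06, 4.30 and 3.01 CPM in set A and at 1.78, 0.701, 1.41 and 1.14 CPM in set B, a difference of 0.92 (SD 0.46). Sphk2, labelled null in every library, was nonetheless counted at 3.18, 1.89, 6.68 and 5.92 CPM in set A and at 6.11, 7.41, 8.34 and 8.13 CPM in set B (-1.03, SD 0.73). Gene totals can include exons outside the deleted parts, so these values check neither allele. Among 41 tested genes of sphingolipid metabolism and signalling, 15 were higher in set A in all strata and 9 lower, near the shares of all genes (30.4% and 27.5%). S1pr3, a receptor for sphingosine 1-phosphate (1.60, SD 0.75), and Asah2, a ceramidase (1.62, SD 0.40), were higher in set A by 2-fold.

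The differences also followed the level and base composition of genes. With genes in 5 equal bins by mean level, the lowest bin had a median of 0.38 and the highest -0.19. By transcript GC content the lowest of 5 bins had a median of -0.21 and the highest 0.23, and the correlation across 15081 genes with a value was 0.232 with GC and -0.104 with length. Medians of the autosomes and the X chromosome lay between -0.10 and 0.09. The 4 tested genes of the Y chromosome had a median of -0.29 and the 8 of the mitochondrial genome -1.45.

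Replicate 1 libraries, in neither set, did not side with either set as a whole. Of the 1376 genes higher in set A, replicate 1 was nearer to set A in 48.4%, 62.4%, 48.5% and 65.2% in the order of the strata. Of the 665 genes higher in set B, it was nearer to set A in 50.5%, 45.9%, 64.2% and 66.5%. For some lists replicate 1 lay outside both sets: the mean log2 CPM of the fibroblast and matrix genes was 3.55 there, against 5.36 in set A and 4.41 in set B, and that of glycolysis and hypoxia genes was 7.26, against 6.17 and 5.90.

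Each set holds both gates of its replicates, so GFP-positive and GFP-negative cells could be compared within each set and between them. The counts of these libraries also gave the sets, so the p-values of the gate tests are exploratory. Genes of the rare 2-cell-like state of embryonic stem cells, whose members are first transcribed when the zygotic genome is activated, were higher in GFP-positive cells of both sets. With edgeR's quasi-likelihood test over all 12 libraries, 37 genes (0.244%) were higher in GFP-positive cells of set A at an adjusted p under 0.05 and 0 were lower (715 at an unadjusted p under 0.05). In set B 0 genes passed in either direction (401 unadjusted, smallest adjusted p 0.46), and 0 passed for the difference between the sets (65 unadjusted, smallest adjusted p 1). With a term for each pair of same-numbered libraries, 226 (1.49%) were higher and 83 (0.547%) lower in set A, 96 (0.632%) higher and 34 (0.224%) lower in set B, and 116 genes were called in both sets. DESeq2 without that term called 143 higher and 27 lower in set A, and 50 and 11 in set B. The count of 37 went to 0 when any of 7 single libraries was left out, among them all 6 GFP-negative libraries and clone 10 GFP-positive replicate 3, and to 106 without clone 4 GFP-positive replicate 2. With the pair term, set A had 44 higher and 9 lower without clone 10 replicate 3, and 546 and 459 without clone 4 replicate 1.

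Of 22 tested 2-cell-like genes, 13 were called in set A and 0 in set B without the pair term, and 20 and 19 with it. With the pair term the set A count was 15 without clone 10 replicate 3, and the set B count was 12 without clone 10 replicate 2. Zscan4f, a telomere-associated factor of that state, rose by 5.26 in set A (SE 0.26, adjusted p = 5.86e-06) and by 3.12 in set B (SE 0.23, adjusted p = 0.000219) in edgeR's test with the pair term. Without that term the values were 4.84 (SE 0.60, adjusted p = 0.0236) and 2.98 (SE 0.54, adjusted p = 0.465). The estrogen receptor gene Esr1, which is not in the 2-cell-like list, rose in set B by 3.33 (SE 0.27, edgeR adjusted p = 0.000239). In set A it rose by 2.73 (SE 0.26, edgeR adjusted p = 0.000278), both with the pair term. Whether the Esr1 reads came from the gene itself or from the Cre-GFP construct was not tested. Copies within the Zscan4 and Usp17l families share reads, so single members are uncertain.

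The difference of the gate effect between the sets passed for a single gene in edgeR's test with the pair term, the deubiquitinase gene Usp17le (1 of 15179 genes, 0.00659%, higher and 0 lower). Its rise was 4.63 in set A (SE 0.19) and 2.28 in set B (SE 0.16), a difference of 2.35 (SE 0.24, adjusted p = 0.0194). GFP-positive minus GFP-negative was 3.66 and 5.29 in the pairs of set A, 1.53 and 2.96 in those of set B, and 3.41 and 4.88 in the replicates numbered 1. Without the pair term the difference was 2.06 (SE 0.70, adjusted p = 1), and with it but without clone 10 replicate 3 it was 2.46 and not called. The 2-cell-like genes had a median gate change of 4.24 in set A and 2.38 in set B with the pair term, and 21 of 22 differences were above 0. Leaving out clone 10 replicate 3 took the set A median to 3.11, the median difference from 1.41 to 0.42 and the count above 0 to 15. Among the 6 pairs, medians were 2.42 and 4.69 in set A, 1.40 and 2.95 in set B, and 3.49 and 4.03 in replicate 1, so the clone 4 pair of set A lay below the clone 10 pair of set B. Levels were low in clone 4. There the mean log2 CPM of the list in GFP-negative libraries was -1.27 (set A) and -0.75 (set B). In clone 10 it was 2.47 (set A) and 2.58 (set B). At low counts the prior count of 2 makes such pair changes smaller.

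**Figure D5:**
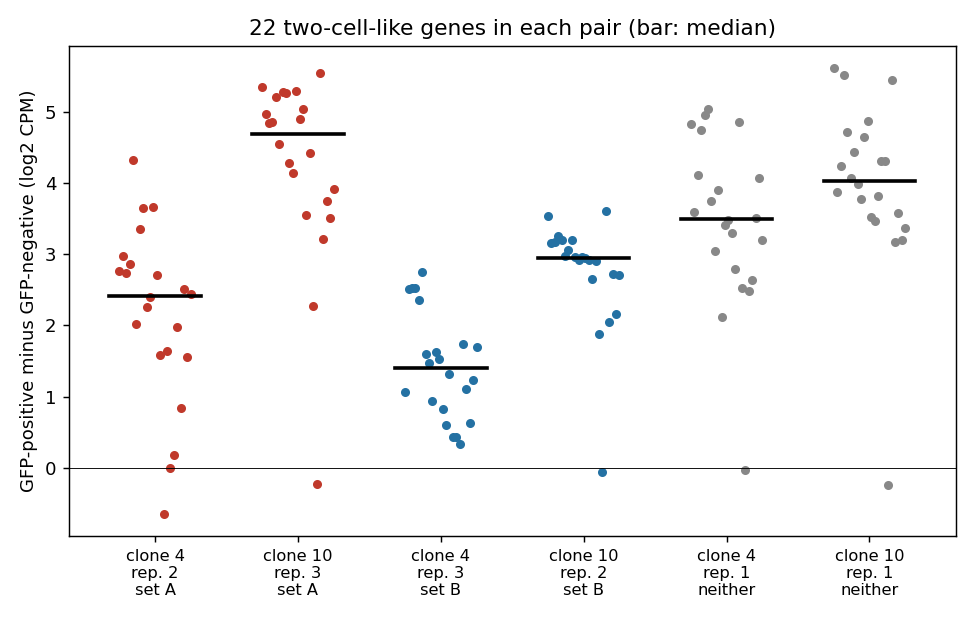
Change from GFP-negative to GFP-positive cells (log2 CPM) of 22 two-cell-like genes in each pair of same-numbered libraries; each dot is a gene and each bar the median. Medians are 2.42 and 4.69 in set A (red), 1.40 and 2.95 in set B (blue) and 3.49 and 4.03 in replicate 1 (grey).

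In edgeR's test, genes lower in GFP-positive cells were called with the pair term and not without it, and the values here are with it. S100a4, a calcium-binding protein of fibroblasts, fell by 2.09 in set A (SE 0.35, edgeR adjusted p = 0.0118) and by 1.93 in set B (SE 0.37, adjusted p = 0.0427). Without clone 10 replicate 3 the set A value of S100a4 was -1.29 and not called, and limma-voom with the pair term did not call it in set B (-1.92). Postn, the matrix protein periostin, fell by 1.44 in set A (SE 0.25, edgeR adjusted p = 0.0152) and by 1.77 in set B (SE 0.26, adjusted p = 0.0106). Of 29 fibroblast and matrix genes, 10 were called lower in set A and 5 in set B, with medians of -0.91 and -0.98. Called or not, only 1 gene of this list had a change above 0 in set A, and 0 did in set B. Over all tested genes, 0.547% were called lower in set A and 0.224% in set B. Histone genes were called higher in 7 of 26 in set A and 1 in set B, and mitotic genes in 12 of 34 and 0. Over all tested genes, 1.49% were called higher in set A and 0.632% in set B, so set A had more calls in general. For the difference between the sets, 0 of these histone and mitotic genes passed. The gate difference of Sphk1 was -1.0 in set A (SE 0.35, edgeR adjusted p = 0.253) and -0.78 in set B (SE 0.36, adjusted p = 0.629) with the pair term, which did not pass in either set.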

How the data were processed

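RNA was extracted with a Qiagen RNeasy kit and libraries were made with the Illumina TruSeq v2 kit, per the labels' protocols. The authors deposited raw read counts per gene. The submitters' processing notes list the mm10 build with STAR 2.3.0e, HTSeq 0.6.0, DESeq and DESeq2. Strand setting and annotation release are both not given in the sources used here. Reads of overlapping genes therefore cannot be told apart. The table lists 22753 genes.

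Counts were analysed as deposited in R 4.3.3 with edgeR 4.0.16. The filter on low counts (10 counts at a median depth in 3 or more libraries, 15 in total) kept 15179 genes and left 7574 untested. Library totals ran from 12968916 to 34258395 counts. Log2 CPM used TMM normalization and a prior count of 2. CPM levels are counts scaled to the library total. The members of the sets and the gene lists were chosen with earlier results of these data known, so set A against set B carries no test. A gene counted as higher in a set when all 4 strata had 1 sign and the mean was at least 2-fold.

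Gate effects were tested with edgeR's robust quasi-likelihood F test and Benjamini-Hochberg adjustment over all 15179 genes, on 12 libraries with terms for group, set and set by gate (4 residual degrees of freedom). A second fit had a term per pair of same-numbered libraries beside gate, clone by gate and set by gate (2 residual degrees of freedom). Deviations from the group means correlated at 0.548 to 0.822 within the 6 pairs, above 0.1 in each, and libraries were paired by number on this ground. The labels do not state a pairing. In replicates 2 and 3 the sets were read from deviations that the 2 gates share, so these correlations do not test the pairing. The biological coefficient of variation was 0.223 without and 0.121 with the pair term. DESeq2 1.42.0 and limma 3.58.1 (voom) were run as alternatives, and the scripts were tested on simulated counts.

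Named genes were the 12 largest mean differences per direction with 1 sign in all strata and a mean log2 CPM of at least 3, up to 4 members per list, and for the gate the smallest p or largest called changes, passing over predicted names. Sphk1 and Sphk2 were always named. Further members named for a low, mixed or opposite difference (such as Fgf4, Klf4, Axin2, Atf4, Fos, Col1a1, Lamp1, Ifit1, Isg15 and mt-Co1) were chosen after their values were seen. Another gene that met the rule is not reported here. Fabp3, which ranked among the largest differences, shares reads with a near-identical copy and is not described. The p-values reflect the spread between libraries, which may be technical. Promoter sequences came from a RefSeq table on GRCm38.p6, and transcript length and GC from the longest transcript of each gene in a GENCODE annotation of the same assembly.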

Additional observations from a re-analysis of the deposited data

Results flagged for a closer look

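Several gene lists had opposite signs in the clones for set A minus set B, in both gates of each, and these differences between clones were not tested. The median of the immediate early list was -0.47 and -0.69 in the GFP-negative and GFP-positive strata of clone 4, and 0.23 and 0.21 in those of clone 10. The interferon list gave -0.55 and -0.51 in clone 4 and 1.32 and 1.21 in clone 10. The list of endoplasmic reticulum chaperones and unfolded protein response genes gave 0.12 and 0.15 in clone 4 and -0.33 and -0.32 in clone 10. For the change with the sorting gate, Usp17le differed between the sets by 2.35 on the log2 scale in the edgeR test within pairs.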

How the results depend on the processing

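The alternatives to TMM scaling, the filter, the prior count, the depth and the estimate left the counts of genes higher in set A and in set B within 1.5 times of 1376 and 665, while a 1.5-fold threshold gave 2778 and 1890. Without a scaling factor the median of all genes moved from 0.03 to 0.16, the chromosome medians (autosomes and X) from between -0.10 and 0.09 to between 0.035 and 0.213, and the medians of the Wnt target list to 0.046 and of the sterol and fatty acid list to 0.013, above 0 but below the median of all genes. Leaving out 1 stratum, and so both its libraries, or a whole clone gave 438 (clone 10 only) to 1496 (clone 4 only) genes higher in set B. With the replicate block (a term per pair), edgeR called 226 higher and 83 lower in set A, 96 and 34 in set B and 1 higher for the difference. DESeq2 gave 143 and 27 in set A and 50 and 11 in set B without the block, and 230, 79, 105, 49 and 5 with it, in the order just used. Limma-voom with the block gave 259, 68, 97, 22 and 1. Without a filter 1 gene was lower in set A, and with only replicates 2 and 3 there were 17 higher. Leaving out 1 library gave 0 to 106 genes higher and 0 to 2 lower in set A, 0 to 20 and 0 in set B and 0 for the difference. Leaving out 1 pair within the block gave 44 (without clone 10 replicate 3) to 546 (without clone 4 replicate 1) higher and 9 to 463 lower in set A, 103 to 330 and 31 to 214 in set B, and 0 to 33 and 0 to 8 for the difference. The difference for Usp17lb ranged from -0.311 (without clone 10 GFP-positive replicate 3) to 5.24 (without clone 10 GFP-negative replicate 3). The causes of these moves were not tested, apart from the fewer samples that leaving out a library implies. The sets and the clone-only and added block fits were chosen after seeing the data.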
